A study of Mus musculus with 2 samples.

Results

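The genes described here are 9 members of the SNARE family, the syntaxins *Stx1a*, *Stx2*, *Stx3*, *Stx16* and *Stx17*, the vesicle-associated membrane proteins *Vamp1*, *Vamp2* and *Vamp4*, and the synaptosomal protein *Snap25*. They were chosen by name, with earlier results of these data known. From the same RNA sequencing, the study had already named *Stx3*, *Stx16* and *Vamp4* as target candidates of the *Mir125b-2* microRNA. All transcripts of the 9 genes were taken, 55 transcripts of the 128603 listed, from 9 of 51804 gene names. The study measured RNA of the newborn mouse brain after loss of the maternal copy of *Mir125b-2*, a microRNA gene, to ask which transcripts differ in abundance from wild type. The maternal knockout (m-/p+) mice were born to heterozygous mothers of a conventional knockout line and wild-type fathers, and so kept an intact paternal copy of the gene, while the wild-type (m+/p+) mice kept both copies. Both groups were C57BL/6 mice by their labels, C57BL/6J in the methods of the study, at postnatal day 0, and in each the RNA of 6 animals was pooled in equal parts into 1 library. With 1 library per genotype there are no replicates, so every ratio below is a comparison of these libraries, without a test and without an error.

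SNARE proteins are the fusion machinery of membrane traffic. A SNARE on the vesicle, usually a VAMP, zips together with a syntaxin and a SNAP-25-type protein, or with a syntaxin and other partners, on the target membrane, and the resulting helical bundle pulls the membranes together. Different compartments use different sets: *Stx1a*, *Snap25* and *Vamp2* serve release of transmitter at synapses, *Stx16* and *Vamp4* act together in traffic from endosomes to the trans-Golgi network, and *Stx17* acts in the fusion of autophagosomes with lysosomes.

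The values are FPKM, fragment numbers scaled to transcript length and library size, which can be compared between genes per length. The depth of the libraries is unknown, because counts of fragments were not used here. FPKM summed to 1748660 in the maternal knockout library and 1736520 in the wild-type library. The precursor of *Mir125b-2* was listed at the floor of 1e-05 FPKM in both libraries, which gives no check of the genotype labels. The tissue label reads whole brain, while the extraction text speaks of the hippocampus, and all 3 hippocampal and all 3 hypothalamic marker genes, together with 2 of 4 hindbrain and cerebellar markers, had a mean of at least 1 FPKM. The hippocampal markers summed to 56.8 FPKM in the knockout against 57.4 FPKM in wild type. Hypothalamic markers summed to 22.0 FPKM in the knockout against 19.6 FPKM in wild type, and the 4 hindbrain and cerebellar markers to 8.68 FPKM against 9.66 FPKM. The hypothalamic markers did not go 1 way. *Avp* had 17.0 FPKM in the knockout against 13.5 FPKM in wild type, *Pmch* 4.29 against 4.02 FPKM, and *Hcrt* 0.781 against 2.02 FPKM. The 3 choroid plexus markers summed to 566 FPKM in the knockout against 530 FPKM in wild type, and 1 of them was higher in the knockout. The 5 neuronal markers summed to 1478 FPKM in maternal knockout brains, against 1481 FPKM in wild-type brains, the 4 markers of astrocytes and radial glia to 663 FPKM in the knockout against 672 FPKM in wild type, and the 4 endothelial markers to 73.0 FPKM in the knockout against 82.2 FPKM in wild type, and no marker of the 11 lists was at 0. The part of these cell types and brain regions in the ratios below was not tested.

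Summed over its transcripts, each of the 9 genes was expressed in both libraries, and 6 of them had nearly the same level. The whole set summed to 256 FPKM in maternal knockout brains, against 257 FPKM in wild-type brains. *Vamp2*, the main vesicle SNARE of forebrain synapses, was the most abundant at 73.9 FPKM in maternal knockout brains, against 75.2 FPKM in wild-type brains. *Snap25*, which sits on the presynaptic plasma membrane, had 73.0 FPKM in maternal knockout brains, against 70.5 FPKM in wild-type brains, and *Stx1a*, its syntaxin partner, had 35.9 FPKM in the knockout against 36.4 FPKM in wild type. The ratios of these genes of transmitter release lay between 0.983 and 1.03.

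The genes of the trans-Golgi and endosomal route were in the middle of the order. *Vamp4* had 21.7 FPKM in maternal knockout brains, against 22.9 FPKM in wild-type brains, and *Stx16* had 14.4 FPKM in the knockout against 14.0 FPKM in wild type. *Vamp1*, the close relative of *Vamp2* that prevails in the brainstem and spinal cord, had 10.9 FPKM in both libraries. The order of the 9 genes by level was the same in both libraries except that *Stx3* stood above *Vamp1* in the maternal knockout and below it in wild type.

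The other 3 genes were past a ratio of 1.2-fold in their sums. *Stx3*, a syntaxin of apical plasma membranes and of dendritic exocytosis, had 13.2 FPKM in maternal knockout brains, against 10.5 FPKM in wild-type brains, a log2 ratio of 0.32. *Stx2*, also known as epimorphin and a plasma membrane syntaxin, had 6.66 FPKM in maternal knockout brains, against 8.24 FPKM in wild-type brains, a log2 ratio of -0.30. *Stx17* had 6.70 FPKM in maternal knockout brains, against 8.35 FPKM in wild-type brains, a log2 ratio of -0.31. Log2 ratios were taken after adding 0.1 FPKM to both sums, which understates the difference of genes with low values.

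Of all 15686 genes with a mean sum of at least 1 FPKM, 20.3% were past 1.2-fold, 10% higher and 10.3% lower in the maternal knockout, and of the 9668 genes with a mean sum of 5 to 100 FPKM, the range in which all 9 genes lie, 9.73% were (7.48% of the 9016 protein-coding genes in that range). The median log2 ratio of the 9 genes was -0.021, against 0.0043 over all genes, with 3 genes above wild type and 6 below it. Of all 15686 genes, 8030 were above wild type and 7656 below it. In RNA from a mixed tissue, fewer cells of a type and less RNA per cell cannot be told apart.

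**Figure D1:**
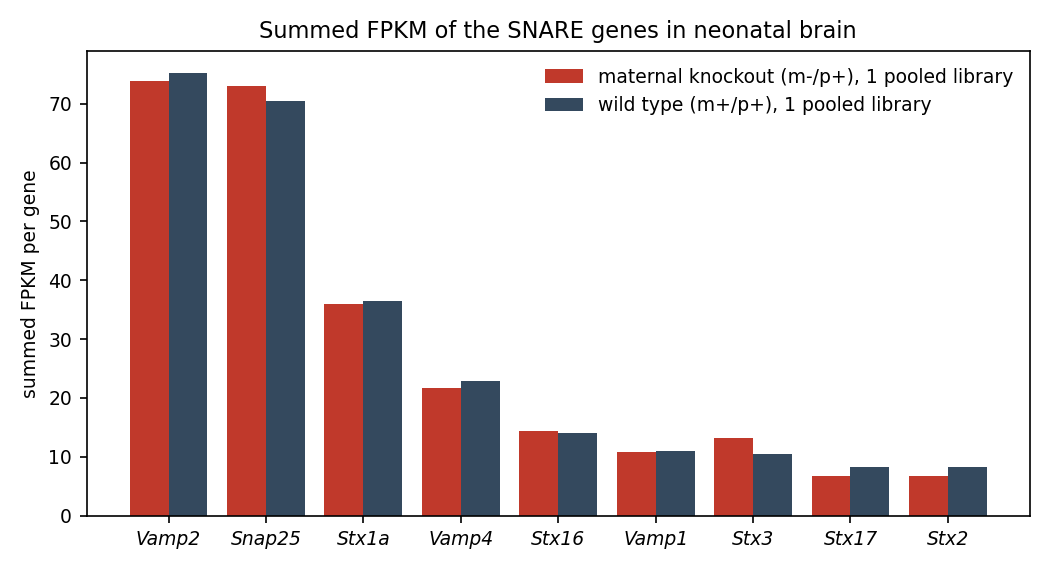
Summed FPKM of each SNARE gene, with the maternal knockout library left of the wild-type library for each gene (1 library of 6 pooled brains per genotype, so there are no error bars). *Vamp2* and *Snap25* lie above 70 FPKM in both libraries, and only *Stx3*, *Stx2* and *Stx17* are past a ratio of 1.2-fold.

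Below the level of the gene, the transcripts of *Stx16* and *Vamp4* were divided differently between the libraries. How far a gene's transcripts were divided differently was measured as redistribution, the summed positive differences of transcript shares between the libraries, in percentage points, so that 0 means equal shares and 100 means that no transcript is shared. Redistribution was 54.8 points for *Stx16* and 25.8 points for *Vamp4*, and between 1.74 and 13.6 points for the other 7 genes. Of all 8340 genes with a mean sum of at least 5 FPKM and more than 1 transcript, 4.39% reached 25 points (4.66% of those with at least 2 transcripts at 0.3 FPKM) and the median was 7.06 points, against 2 of 9 members and a median of 12.2 points. Of the 8340 genes, 22 were above *Stx16*, and 336 were above *Vamp4*. The study had already named these genes as candidates from the same RNA sequencing, so nothing is read from the count of members called.

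*Stx16*, on chromosome 2 at chr2:174076308-174099771 of GRCm38 on the plus strand, encodes a syntaxin of the trans-Golgi network. It has 6 annotated transcripts, of which 4 were at the floor in both libraries. Transcript ENSMUST00000087908 had 9.50 FPKM in maternal knockout brains, against 1.54 FPKM in wild-type brains, a ratio of 6.17. Transcript ENSMUST00000044638 had 4.95 FPKM in maternal knockout brains, against 12.5 FPKM in wild-type brains, a ratio of 0.397. The first thus made 65.8% of the gene's FPKM in the maternal knockout and 11.0% in wild type, and the second 34.2% in the maternal knockout and 89.0% in wild type.

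Both *Stx16* transcripts encode a syntaxin and are nearly alike in sequence: they are 3865 and 3731 bases long, share 3716 bases, or 96.1% and 99.6% of their lengths, and end 1 base apart. Within the coding sequence they differ in 1 small alternative exon, of 12 bases in ENSMUST00000087908 (chr2:174084646-174084657) and of 15 bases in ENSMUST00000044638 (chr2:174077338-174077352), both multiples of 3. The transcript sequence at this place is shown because these bases, in capitals, and 136 noncoding bases that only ENSMUST00000087908 has near its 5′ end, are nearly all that tells the transcripts apart; the letters in lower case are the flanking exons.
ENSMUST00000087908: attgctgcgGAGCTGGACGAGcttgctgat
ENSMUST00000044638: tgctgcgGAGTGTGATACAGAActtgctg

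The annotation gives ENSMUST00000087908 the highest support level, 1, and ENSMUST00000044638 the lowest, 5. How well short reads separate transcripts that share so many bases was not tested. When transcripts whose 3′ ends lie within 10 bases were merged, both of these fell into 1 class and the redistribution of *Stx16* was 0.

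*Vamp4*, at chr1:162570515-162599084 on the plus strand of GRCm38, encodes the vesicle SNARE that pairs with syntaxins on the trans-Golgi network and endosomes. Its transcript ENSMUST00000135241 had 10.8 FPKM in maternal knockout brains, against 11.7 FPKM in wild-type brains, which was 49.8% of the gene in the knockout and 51.0% in wild type. ENSMUST00000132158 had 9.81 FPKM in maternal knockout brains, against 4.53 FPKM in wild-type brains, a ratio of 2.16, and its share was 45.2% in the knockout and 19.8% in wild type. ENSMUST00000050010 had 0.00275 FPKM in maternal knockout brains, against 5.10 FPKM in wild-type brains, shares of 0.0127% and 22.2% in the knockout and in wild type. The redistribution of 25.8 points came from this pair, of which one was high where the other was low.

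The pair encodes the same 423 coding bases and shares 2480 bases, 90.1% of the length of ENSMUST00000132158 and 97.9% of that of ENSMUST00000050010. They differ at their 5′ end, where the first exon has 266 bases in ENSMUST00000132158 and 52 bases in ENSMUST00000050010, and their 3′ ends lie 6 bases apart. Together they had 9.81 FPKM in maternal knockout brains, against 9.63 FPKM in wild-type brains, a ratio of 1.02. Merging transcripts with the same coding bases took the redistribution of *Vamp4* to 3.24 points and left *Stx16* at 54.8 points, with 3.4% of 8148 genes at 25 points or more. The merging by 3′ ends took *Vamp4* to 3.63 points and left no member at 25 points, with 1.74% of 7971 genes. Both mergings were chosen after seeing the data.

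The third main transcript of *Vamp4*, ENSMUST00000135241, has a last exon of its own, so its protein ends differently. The ends of the coding sequences are shown because this is the difference between the Vamp4 proteins that these transcripts encode; capitals mark the coding bases that the transcripts do not share, and the stop codon is in lower case. The capitals lie at chr1:162594546-162594571 for ENSMUST00000135241 and at chr1:162597049-162597074 for ENSMUST00000132158, and ENSMUST00000050010 ends like ENSMUST00000132158.
ENSMUST00000135241: TTCTTATAGTTGTGAAATTCCGTACTtga
ENSMUST00000132158: CTCAGATCATCCTGCACTTGAAAAAAtga

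The share of the form with the first ending was 49.8% in the maternal knockout and 51.0% in wild type. The transcripts that encode the different ends of *Vamp4* thus stood in nearly the same proportion, and protein was not measured in these libraries. A further *Vamp4* transcript with a retained intron, ENSMUST00000128704, had 0.919 FPKM in maternal knockout brains, against 1.42 FPKM in wild-type brains.

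**Figure D2:**
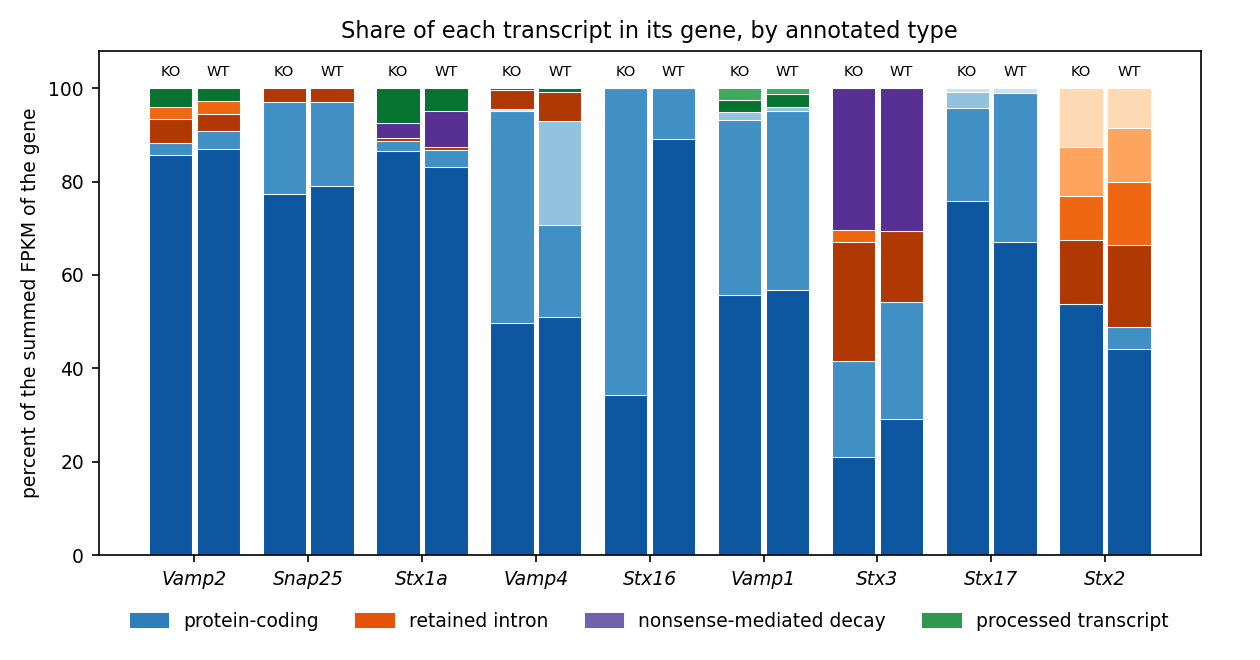
Share of each gene's summed FPKM taken by its transcripts, in percent, as stacked bars with the maternal knockout left of wild type for each gene 1 colour per annotated transcript type and 1 shade per transcript. The division differs most for *Stx16*, where ENSMUST00000087908 takes 65.8% in the maternal knockout and 11.0% in wild type, and is nearly equal in *Snap25*, *Vamp1* and *Vamp2*.

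**Figure D3:**
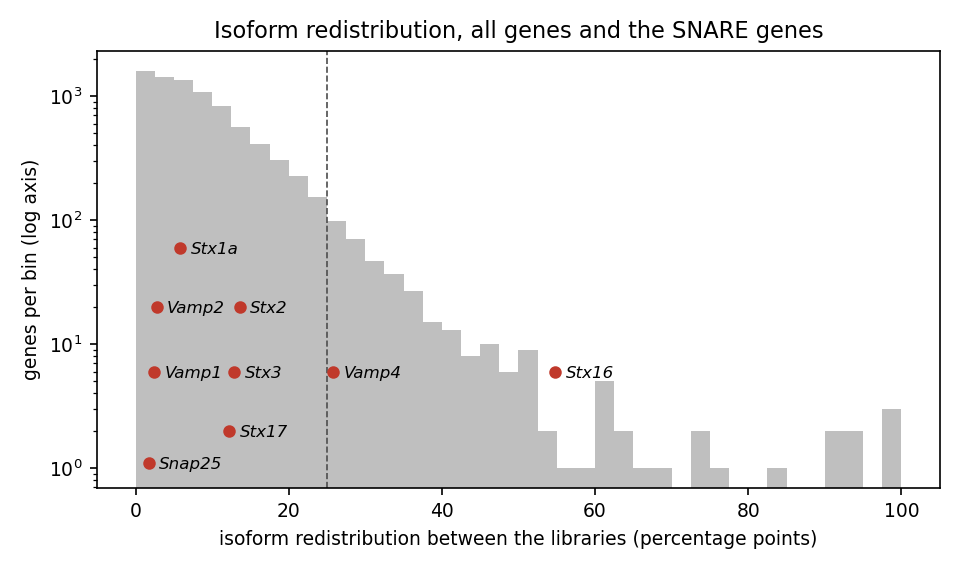
Redistribution in percentage points on the x axis for 8340 genes, with the number of genes on the y axis as a histogram; the dots mark the 9 SNARE genes at their values, and the height of a dot has no meaning. *Stx16* (54.8 points) and *Vamp4* (25.8 points) are past 25 points, as are 4.39% of all genes.

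Among the plasma membrane syntaxins, *Stx1a* was carried by ENSMUST00000005509, which had 31.1 FPKM in maternal knockout brains, against 30.3 FPKM in wild-type brains. A transcript of *Stx1a* marked for nonsense-mediated decay, ENSMUST00000150838, had 1.21 FPKM in maternal knockout brains, against 2.83 FPKM in wild-type brains, a ratio of 0.427. These transcripts share 2084 bases, 96.4% and 96.2% of their lengths. Of its lesser transcripts, the noncoding ENSMUST00000144198 had 2.65 FPKM in the knockout against 1.79 FPKM in wild type and the incomplete ENSMUST00000201008 had 0.805 FPKM in the knockout against 1.35 FPKM in wild type. The protein-coding transcripts of *Stx1a* summed to 31.9 FPKM in maternal knockout brains, against 31.6 FPKM in wild-type brains.

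The higher sum of *Stx3* in the maternal knockout lay in transcripts that are not annotated to give full syntaxin-3 protein. Its protein-coding transcripts summed to 5.48 FPKM in maternal knockout brains, against 5.70 FPKM in wild-type brains, a ratio of 0.961. The coding forms ENSMUST00000075304 and ENSMUST00000069285, which differ in their last exons, had 2.76 and 2.72 FPKM in the maternal knockout, against 3.08 and 2.62 FPKM in wild type. The other transcript types summed to 7.69 FPKM in maternal knockout brains, against 4.83 FPKM in wild-type brains, a ratio of 1.59. Among them a retained-intron transcript, ENSMUST00000210481, had 3.35 FPKM in maternal knockout brains, against 1.60 FPKM in wild-type brains, a ratio of 2.09, and a transcript marked for nonsense-mediated decay, ENSMUST00000047698, had 3.99 FPKM in the knockout against 3.23 FPKM in wild type, a ratio of 1.24. With protein-coding transcripts alone, the log2 ratio of *Stx3* was -0.057 and the direction turned. Protein-coding transcripts made 41.6% of the *Stx3* sum in the maternal knockout and 54.1% in wild type.

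The lower sum of *Stx2* likewise lay largely outside its main coding transcript, ENSMUST00000031378, which had 3.58 FPKM in maternal knockout brains, against 3.64 FPKM in wild-type brains, a ratio of 0.982. Its 4 retained-intron transcripts at a mean of 0.3 FPKM or more summed to 3.08 FPKM in maternal knockout brains, against 4.21 FPKM in wild-type brains. Of these, ENSMUST00000144846 had 0.919 FPKM in the knockout against 1.44 FPKM in wild type, ENSMUST00000151712 had 0.629 FPKM in the knockout against 1.12 FPKM in wild type, and ENSMUST00000128448 had 0.689 FPKM in the knockout against 0.953 FPKM in wild type. ENSMUST00000199813 was the one with a higher value in the maternal knockout, 0.843 FPKM against 0.708 FPKM in wild type. A partial coding transcript, ENSMUST00000149877, was at the floor in the maternal knockout and had 0.387 FPKM in wild type. With protein-coding transcripts alone the log2 ratio of *Stx2* was -0.17, inside the 1.2-fold band.

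The lower sum of *Stx17* lay mainly in a partial transcript. ENSMUST00000107720 had 5.08 FPKM in maternal knockout brains, against 5.60 FPKM in wild-type brains, a ratio of 0.908, and ENSMUST00000153502, which has 618 bases and no complete 3′ end in the annotation, had 1.34 FPKM in the knockout against 2.67 FPKM in wild type, a ratio of 0.503. The sums differed by -1.65 FPKM, maternal knockout minus wild type, of which -1.33 FPKM lay in this partial transcript. All annotated transcripts of *Stx17* are protein-coding, so the sum over coding transcripts is the same.

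The synaptic vesicle genes *Vamp1* and *Vamp2* had ratios of their sums close to 1. The main *Vamp2* transcript had 63.4 FPKM in maternal knockout brains, against 65.4 FPKM in wild-type brains. Of the 4 lesser ones, ENSMUST00000149780 had 3.88 FPKM in the knockout against 2.86 FPKM in wild type, ENSMUST00000149559 stood at a ratio of 1.46, ENSMUST00000146847 had 1.82 FPKM in the knockout against 2.05 FPKM in wild type, and ENSMUST00000117780 had 1.81 FPKM in the knockout against 2.82 FPKM in wild type, and none passed 2-fold. *Vamp1* had 2 abundant transcripts, ENSMUST00000032487 at 6.07 FPKM in the knockout against 6.21 FPKM in wild type and ENSMUST00000100942 at 4.09 FPKM in the knockout against 4.21 FPKM in wild type.

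The *Vamp1* forms end in different coding bases, so the ends of their proteins differ. ENSMUST00000032487 made 55.7% of the gene in the maternal knockout and 56.7% in wild type, and ENSMUST00000100942 made 37.5% in the maternal knockout and 38.5% in wild type. The coding ends are shown because they set the forms apart, with capitals for the coding bases that each has alone and the stop codon in lower case. The capitals lie at chr6:125220050-125220063 and chr6:125219638-125219648 on the plus strand of GRCm38.
ENSMUST00000032487: tagtgattgtaaTCTACTTTTTTACTtga
ENSMUST00000100942: tagtgattgtaaGTAAGTATCGCtga

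*Vamp1* overlaps *Tapbpl* on the opposite strand, which had 1.23 FPKM in maternal knockout brains, against 1.26 FPKM in wild-type brains, and the strand setting of the authors' estimation is not given in the sources used here.

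*Snap25* has a pair of alternative exons of 118 bases each, at chr2:136770057-136770174 in ENSMUST00000028727 and at chr2:136769743-136769860 in ENSMUST00000110098, that differ at 31 positions and are 73.7% identical. The stretch with the most differences is shown because the exon choice alters the protein; capitals mark the bases that differ, and the stretches lie at chr2:136770107-136770134 and chr2:136769793-136769820 on the plus strand.
ENSMUST00000028727: aaAgaAgcAgaAaaGaatttGaCGgaCC
ENSMUST00000110098: aaGgaGgcCgaGaaAaatttAaAAgaTT

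ENSMUST00000028727 had 56.4 FPKM in maternal knockout brains, against 55.7 FPKM in wild-type brains, and ENSMUST00000110098 had 14.4 FPKM in the knockout against 12.8 FPKM in wild type. Their shares of the gene were 77.3% and 19.7% in the maternal knockout, against 79.0% and 18.1% in wild type, and a retained-intron transcript, ENSMUST00000125486, had 2.19 FPKM in the knockout against 2.02 FPKM in wild type. The annotation ends ENSMUST00000110098 short of 1077 bases that ENSMUST00000028727 has at its 3′ end. The redistribution of 1.74 points was the lowest of the 9 genes.

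Over the 9 genes, 31 of the 55 transcripts had a mean of at least 0.3 FPKM, and 6 of these were past 2-fold, 3 higher and 3 lower in the maternal knockout. The higher ones were the named transcripts of *Stx16*, *Vamp4* and *Stx3*, and the lower ones those of *Stx16*, *Vamp4* and *Stx1a*. Past 2-fold were 18.4% of all 50873 transcripts at this minimum, 9.43% higher and 8.93% lower, so that 6 of 31 is near the share of all transcripts. At a mean of at least 5 FPKM, a minimum chosen after seeing the data, 3 of 10 member transcripts were past 2-fold, against 2.29% of 11987 transcripts. These were the higher and the lower transcript of *Stx16*, which share most of their bases, and the higher transcript of *Vamp4*. The study had already named these genes from the same data, so nothing is read from this count.

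**Figure D4:**
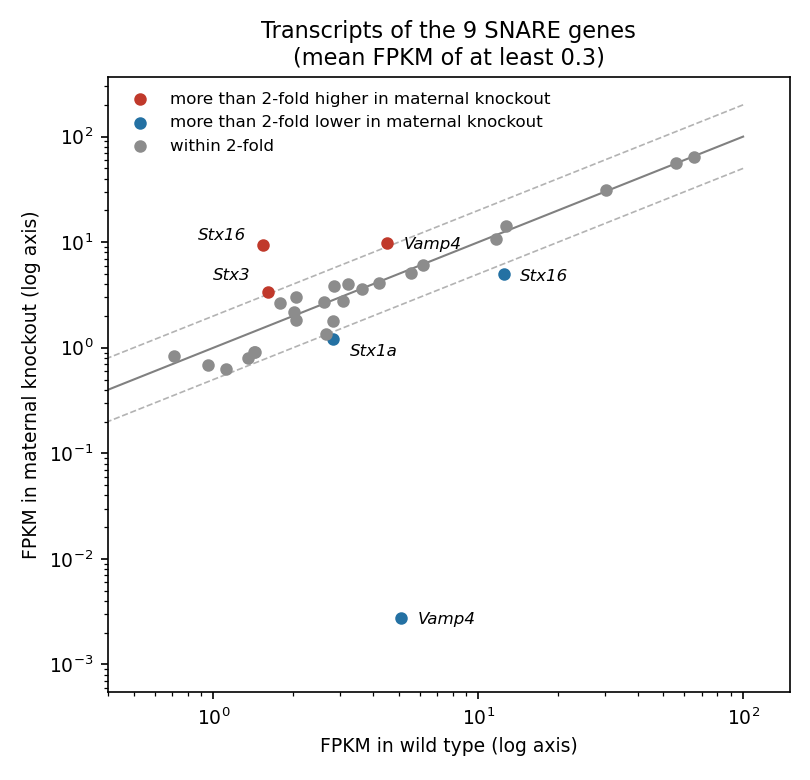
FPKM of each of the 31 SNARE transcripts with a mean of at least 0.3 FPKM, in the maternal knockout on the y axis and in wild type on the x axis, both log axes. The solid line marks equal values and the dashed lines 2-fold, and the coloured points are the 3 transcripts past 2-fold above and the 3 below.

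A microRNA carries its targeting information mainly in bases 2 to 8, the seed, which pairs with matching sequence in the 3′ untranslated region of a messenger RNA. RefSeq (GRCm38.p6) lists miR-125b-5p with the same mature sequence for *Mir125b-1* (chr9:41581940-41581961) and *Mir125b-2* (chr16:77646279-77646300), and miR-125b-2-3p for *Mir125b-2* alone (chr16:77646318-77646339). The sequences are shown with the seed in capitals.
miR-125b-5p: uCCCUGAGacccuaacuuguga
miR-125b-2-3p: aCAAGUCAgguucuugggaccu

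The 3′ untranslated regions of the 16 complete coding transcripts of the 9 genes at a mean of at least 0.3 FPKM were searched on the transcript's strand for CTCAGGG, the reverse complement of the seed of miR-125b-5p, and for TGACTTG, that of miR-125b-2-3p. A match to CTCAGGG was found in 5 transcripts of 4 genes: *Stx1a*, *Stx2* (a pair of matches), *Stx3* in ENSMUST00000069285, and both *Vamp1* transcripts at 1 shared site. The share of untranslated regions of 0.8 to 1.25 times the length that hold CTCAGGG was 12.6% for *Stx1a*, 18.4% for *Stx2*, 16.7% for *Stx3*, and 21.7% and 24.5% for the *Vamp1* transcripts. Each match is shown with 8 flanking bases on either side in lower case and the searched bases in capitals.
Stx1a chr5:135050432-135050438: cccggaggCTCAGGGtgccacgg
Stx2 chr5:128987723-128987729: gcctctccCTCAGGGtggcaaag
Stx2 chr5:128985776-128985782: tacagcccCTCAGGGcccttcta
Stx3 chr19:11777702-11777708: gatggagcCTCAGGGatgccttc
Vamp1 chr6:125221573-125221579: cgtgctgcCTCAGGGcagggctg

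The matches of *Stx2* and *Stx3* lie on the minus strand of GRCm38 and the others on the plus strand. TGACTTG was found in 1 transcript, ENSMUST00000032487 of *Vamp1*, and 19.2% of regions of like length hold it.
Vamp1 chr6:125222171-125222177: cacaacatTGACTTGattgttgt

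The genes with a CTCAGGG match had log2 ratios of -0.021 (*Stx1a*), -0.30 (*Stx2*), 0.32 (*Stx3*) and -0.0058 (*Vamp1*), and their 5 transcripts with a match had ratios between 0.972 and 1.04. The *Stx3* coding transcript without a match, ENSMUST00000075304, had a ratio of 0.897. The *Stx16* and *Vamp4* transcripts held neither sequence, and 25.3% and 25.4% of regions of like length to those of *Stx16* hold CTCAGGG. A match is a description of the sequence, and its absence says only that these letters are not in this window.

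The other genes of the SNARE family, a list of 27, had 23 members with a mean sum of at least 1 FPKM. Of these 1 was past 1.2-fold, against 20.3% of all 15686 genes, and nothing is read from this count. This was *Stx8*, a syntaxin of the endosome, which had 5.86 FPKM in maternal knockout brains, against 7.10 FPKM in wild-type brains, a log2 ratio of -0.27. Its protein-coding transcripts summed to 5.30 FPKM in the knockout against 4.74 FPKM in wild type, a ratio of 1.12, so that the direction turned with coding transcripts alone, and the noncoding ENSMUST00000129992 had 0.560 FPKM in the knockout against 2.23 FPKM in wild type. The median log2 ratio was -0.023, with 10 above wild type and 13 below it, against 8030 above and 7656 below of all 15686 genes. The highest was *Stx18*, a syntaxin of the endoplasmic reticulum, with 10.5 FPKM in the knockout against 9.09 FPKM in wild type and a log2 ratio of 0.20. The ratio of *Stx18* over protein-coding transcripts alone was 1.22. *Gosr2*, a Golgi SNARE, had 27.4 FPKM in maternal knockout brains, against 25.3 FPKM in wild-type brains, a log2 ratio of 0.12. Past 25 points of redistribution was 1 of 20, against 4.39% of all 8340 genes, and nothing is read from this count. This was *Stx4a*, a plasma membrane syntaxin, at 25.3 points. It had a sum of 4.82 FPKM in the knockout against 5.68 FPKM in wild type and a log2 ratio of -0.23. Most of these points lay in *Stx4a* transcripts below a mean of 0.3 FPKM. Among them, ENSMUST00000156537 had 0.484 FPKM in the knockout and was at the floor in wild type. ENSMUST00000125861 was at the floor in the knockout and had 0.472 FPKM in wild type. Past 2-fold were 13 of the list's 90 transcripts at the minimum, 5 higher and 8 lower, against 18.4% of all transcripts. The partners of *Stx16* and *Vamp4* in the trans-Golgi complex, picked after their values were seen, were *Stx6* at 26.0 FPKM in maternal knockout brains, against 24.6 FPKM in wild-type brains and *Vti1a* at 8.60 FPKM in the knockout against 9.18 FPKM in wild type.

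The list of 21 regulators, the proteins that bind, guard or recycle SNARE complexes, had 19 members at a mean sum of at least 1 FPKM. Of these, 8 were above wild type and 11 below it, against 8030 above and 7656 below of all 15686 genes, and the median log2 ratio was -0.027. Of their 80 transcripts at the minimum, 15 were past 2-fold, 4 higher and 11 lower, against 18.4% of all transcripts, 9.43% higher and 8.93% lower, and nothing is read from these counts about the regulators. Of the genes, 3 were past 1.2-fold in their sums, against 20.3% of all 15686 genes, and nothing is read from this count about the regulators. *Vps45*, the Sec1/Munc18-type protein that binds syntaxin 16, had 14.0 FPKM in maternal knockout brains, against 17.3 FPKM in wild-type brains, a log2 ratio of -0.31, but its protein-coding transcript had 8.70 FPKM in the knockout against 8.88 FPKM in wild type. *Scfd2*, of the same Sec1 family, had 5.83 FPKM in the knockout against 7.56 FPKM in wild type, or -0.37 as a log2 ratio, and *Stxbp4*, a binding protein of syntaxin 4, had 4.27 FPKM in the knockout against 3.51 FPKM in wild type, or 0.27 as a log2 ratio. With protein-coding transcripts alone, the ratio of sums was 0.775 for *Scfd2* and 1.16 for *Stxbp4*, the second inside 1.2-fold. *Scfd1*, which acts between endoplasmic reticulum and Golgi, had 15.8 FPKM in maternal knockout brains, against 14.1 FPKM in wild-type brains, a log2 ratio of 0.17.

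**Figure D5:**
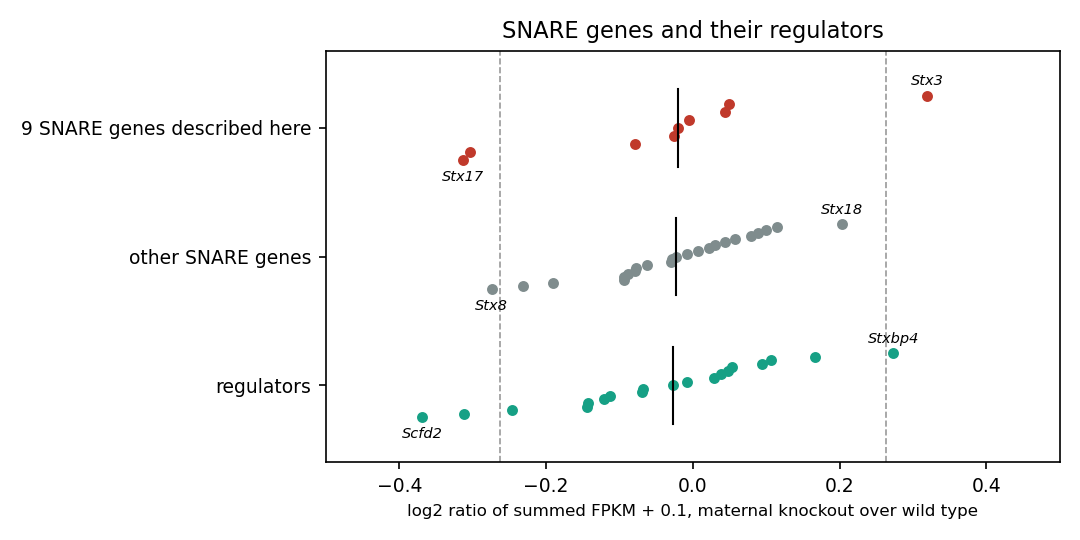
Log2 ratio of summed FPKM plus 0.1, maternal knockout over wild type, for each gene of the 3 lists with a mean sum of at least 1 FPKM (1 dot per gene, raised by rank within its list, with a bar at the median and dashed lines at 1.2-fold). The 9 members, the other SNARE genes and the regulators lie mostly within 0.3 of 0, with medians of -0.021, -0.023 and -0.027.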

How the data were processed

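Brain RNA of maternal knockout and wild-type mice was measured in 1 library per genotype, each pooled from 6 animals; genotypes were taken from the sample labels. Per the labels, ribosomal RNA was removed, and libraries were strand-specific. Per the submitters' processing notes, bcl2fastq, Trimmomatic 0.36, HISAT2 2.1.0 and Cuffdiff were used with GRCm38.p5. The authors deposited FPKM per Ensembl transcript, with 1e-05 in place of 0; the sources used here do not give the version of Cuffdiff or how it scaled the libraries. The deposited ratio, log2 ratio, p-value and q-value columns hold the authors' own comparison of the libraries and were not used, and neither was a second sheet of transcripts chosen by that comparison.

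Values at the floor were set to 0. FPKM of a gene's transcripts were summed, log2 ratios used a pseudocount of 0.1 FPKM, and gene sums were counted at a mean of at least 1 FPKM and 1.2-fold, transcripts at a mean of at least 0.3 FPKM and 2-fold, and redistribution at a mean sum of at least 5 FPKM and 25 points. Transcript structures and untranslated regions were taken from the GENCODE M21 annotation (GRCm38). It held 99.5% of transcripts and all 55 member transcripts at the same locus. The procedure was tested on simulated data, wild-type values with known folds and shifts added and no noise. This checks the computation only. It does not measure counting error or how reads are divided between transcripts that share most bases. Named are all 9 members with each transcript at a mean of at least 0.3 FPKM, the 2 highest and 2 lowest genes of each other list, and each gene of those lists past 25 points; others are said to be picked. With 2 libraries, likeness of pattern between genes cannot be measured. The members and lists were chosen with earlier results of these data known. Alternatives changed the minimum, fold, pseudocount, scaling, transcript types and lengths, and the merging of transcripts. Python 3.11.15, numpy 2.4.6, pandas 2.3.3 and matplotlib 3.10.9 were used.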

Additional observations from a re-analysis of the deposited data

How the results depend on the processing

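No paired analysis was possible because neither genotype has more than 1 library. Of 113 values recomputed under the alternatives, 101 kept within the limits set (a count within 1.5 times, a log2 ratio within 0.1 of its value), 11 moved and 1 reversed: with protein-coding transcripts alone, the log2 ratio of *Stx3* was -0.057 against 0.32, that of *Stx2* was -0.17, and 1 member instead of 3 was past 1.2-fold. With no minimum, 2 instead of 1 of the other SNARE genes and 5 instead of 3 regulators were past 1.2-fold, and 9 member transcripts were higher and 5 lower past 2-fold, against 3 and 3. At a fold of 1.5, 3 were higher and 9 lower, and at a mean of at least 5 FPKM 2 were higher and 1 lower. At 10 points, 5 instead of 2 members were called for redistribution, as were 34.4% of genes; merging the same coding bases left 1 and merging 3′ ends within 10 bases left 0. The last 2 settings and the minimum of 5 FPKM were chosen after seeing the data. With a minimum of 0.3 FPKM on wild type alone, 3 transcripts were higher and 4 lower. Each of these settings counts more or fewer transcripts, or moves a threshold, by construction. The share of all genes or transcripts past the same fold was not computed with no minimum, at a fold of 1.5 or with the minimum on wild type. Nothing is read from those counts about the members or the lists. The depth of the libraries is unknown, so the counting error of low values cannot be given.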

Other observations

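Past 25 points of redistribution was 1 of 16 regulators, against 4.39% of all 8340 genes, and nothing is read from this count. This was *Snapin*, a regulator that binds SNAP-25, at 49.0 points. Its sum was 16.5 FPKM in maternal knockout brains, against 17.8 FPKM in wild-type brains. Both main differing transcripts are marked for nonsense-mediated decay: ENSMUST00000185005 had 7.14 FPKM in maternal knockout brains, against 0.0208 FPKM in wild-type brains, and ENSMUST00000184877 had 1.36 FPKM in the knockout against 9.02 FPKM in wild type. They share 1497 bases, 99.5% of the length of ENSMUST00000185005 and 95.0% of that of ENSMUST00000184877, and together had 8.50 FPKM in the knockout against 9.04 FPKM in wild type. The coding transcript had 5.37 FPKM in maternal knockout brains, against 4.99 FPKM in wild-type brains. How well the estimation separates these transcripts was not tested.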
